A study of Mus musculus with 21 samples.

Results

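The 39 genes described here were chosen by name as aminoacyl-tRNA synthetases of the mouse and the scaffold genes of the complex that holds some of them: 20 cytosolic synthetase genes, 16 mitochondrial synthetase genes and 3 scaffold genes, among 22058 protein-coding genes with deposited counts. The list names genes and uses no measured value, though it was drawn up with earlier results of these data known. All 39 were found in the count table, 38 under the symbol used here and Mars1 under its older symbol Mars. RNA came from the anterior right hemisphere of the brain of 9 eIF2B HOM mice (5 female and 4 male, 93 to 114 days old) and 12 wild-type mice (7 female and 5 male, 90 to 114 days old), all of strain C57Bl6/J and given no treatment in the labels. The eIF2B HOM mice are homozygous for the knock-in allele Eif2b5[R191H], a missense change in the catalytic subunit of the initiation factor eIF2B, made to model vanishing white matter disease, and the wild-type mice carry no engineered allele. The allele is present from conception and in all cells, so effects within the brain cannot be told apart from effects of other tissues on it. The methods describe the colony as littermates, but the labels name no litter. The labels place the mice in 2 batches without saying what a batch is: batch 1 has 4 eIF2B HOM and 8 wild-type mice, aged 104 to 114 days, while batch 2 has 5 eIF2B HOM and 4 wild-type mice, aged 90 to 104 days.

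An aminoacyl-tRNA synthetase joins one amino acid to its tRNA, the step that gives the ribosome its substrates. The cytosol and the mitochondrion use separate sets of these enzymes, nearly all encoded by separate nuclear genes, and Gars and Kars are the exceptions that serve both places from one gene. In mammals several cytosolic synthetases sit in a multi-synthetase complex built on the scaffold proteins encoded by Aimp1, Aimp2 and Eef1e1. The others are called free here, which means only that they lie outside this complex. The synthetases fall into class I and class II by the fold of their catalytic domain. eIF2B recharges eIF2 with GTP. When it fails, the integrated stress response (ISR) lowers general translation but raises that of the transcription factor ATF4, and ATF4 is known from cell culture to switch on genes for amino acid supply, among them several cytosolic synthetase genes.

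Each library samples the 3′ ends of polyadenylated RNA, and molecular identifiers let PCR copies be dropped. The total deposited count per library was 727018 to 2918902 (median 1209719) in eIF2B HOM and 827862 to 3100141 (median 1270017) in wild-type mice, and 2 eIF2B HOM and 3 wild-type libraries lay below 1000000. Levels are given as CPM (counts scaled to 1000000) of the TMM-scaled library, with no scaling by transcript length. Levels are compared between mice, and sums, shares and ratios of genes are likewise compared between mice. Differences are log2 fold changes of eIF2B HOM over wild-type mice from edgeR's quasi-likelihood test, with sex and age as covariates and p-values adjusted by Benjamini and Hochberg's method over all 9192 genes that passed the filter on low counts, and a gene is called at an adjusted p under 0.05. The median log2 fold change over those genes was -0.01. Neuron markers summed to 2241 to 3554 CPM in eIF2B HOM and 2507 to 3655 CPM in wild-type mice, and no marker of the 7 cell type and region lists used was at 0 in every mouse of a genotype. The mutated codon is not read by 3′ counting, so the level of Eif2b5 does not check the labels.

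Of the cytosolic synthetase genes 11 were higher in eIF2B HOM mice, and no mitochondrial or scaffold gene was called. Of the 39 genes, 30 passed the filter, 11 were higher, 0 were lower and 19 were not called, where 2.62% of all tested genes were higher and 1.7% lower. All 11 are in the cytosolic set, of which 19 genes were tested. The median log2 fold change over the 19 was 0.48, with a range of -0.02 to 1.33. That set holds Gars and Kars, which also serve the mitochondrion, and Gars was called. None of the 8 tested mitochondrial genes (median -0.01, range -0.34 to 0.13) or 3 tested scaffold genes (range -0.45 to 0.08) was called. The depth differed between these sets: over all 21 mice the tested genes had 437 to 4960 counts if cytosolic, 231 to 1038 if mitochondrial and 407 to 2672 if scaffold genes, so that a difference of a given size was harder to call among the mitochondrial genes. No mitochondrial gene had an unadjusted p under 0.05 in edgeR, and limma and DESeq2 called none either, nor did they call any of the 39 genes lower. In edgeR 14 of the 30 had an unadjusted p under 0.05: the 11 called genes, Mars1, Farsb and, on the lower side, Eef1e1, beside 16.5% of all genes tested. These are bulk samples, so more of a cell type that is rich in a transcript and more of that transcript per cell cannot be told apart.

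**Figure D1:**
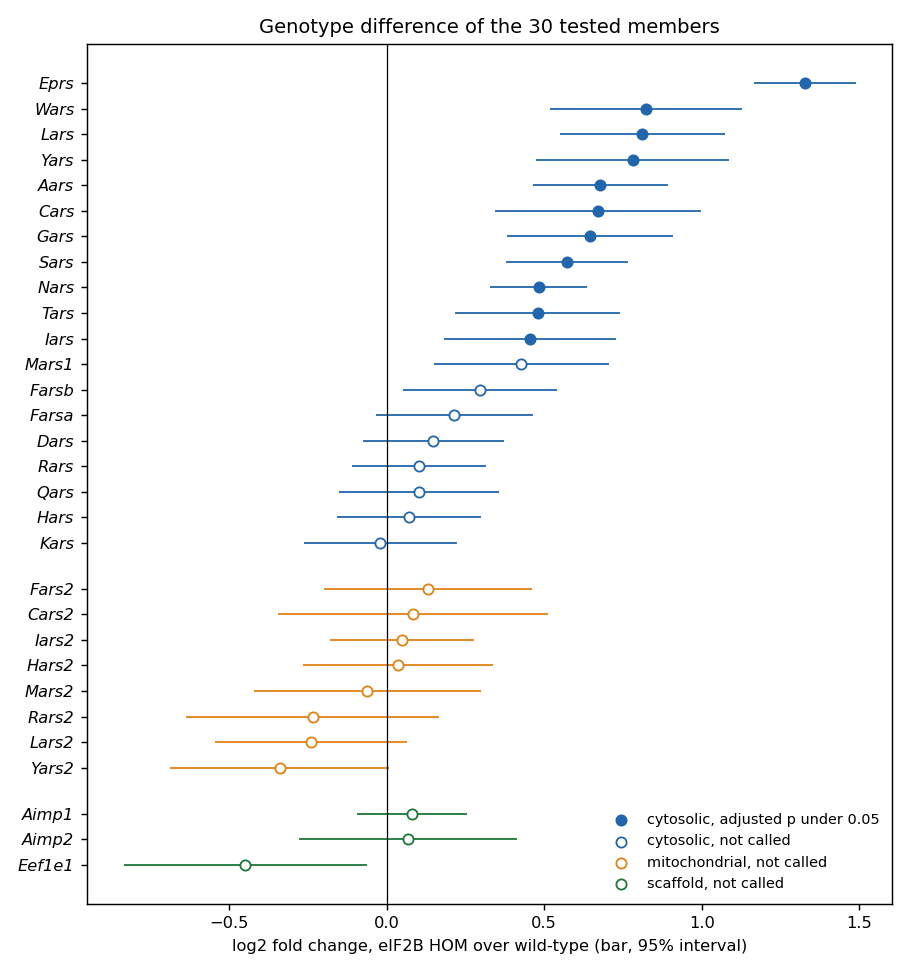
Log2 fold change of eIF2B HOM over wild-type mice (x axis) for each of the 30 tested genes (rows), by role, with 95% intervals from edgeR; filled points passed an adjusted p under 0.05. The 11 filled points, from Eprs at 1.33 to Iars at 0.46, are all in the cytosolic set, which includes Gars. The mitochondrial and scaffold points lie between -0.45 and 0.13.

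Eprs, the dual enzyme that charges both glutamyl- and prolyl-tRNA and a member of the multi-synthetase complex, differed most. It lies at chr1:185363044-185428360 (GRCm38, plus strand). Its level was 170.3 to 231 CPM (median 196) in eIF2B HOM and 57.9 to 101 CPM (median 84.0) in wild-type mice. The genotypes did not overlap: the lowest eIF2B HOM mouse was above the highest wild-type mouse. The log2 fold change was 1.33 (SE 0.08, adjusted p = 8.94e-17 from edgeR), a fold of 2.51, and Eprs ranked 7 by p among the 9192 genes. It was the 1 tested synthetase or scaffold gene with all 9 eIF2B HOM mice above all 12 wild-type mice, a pattern that 0.424% of all tested genes show. Of the summed CPM of the 20 cytosolic genes, Eprs made up 16.0 to 20.1% in eIF2B HOM and 8.45 to 12.9% in wild-type mice.

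The other called members of the multi-synthetase complex were Lars and Iars, which charge the branched-chain amino acids leucine and isoleucine. Lars was at 31.0 to 84.5 CPM (median 57.5) in eIF2B HOM and 20.6 to 37.0 CPM (median 33.7) in wild-type mice, and 8 of 9 eIF2B HOM mice lay beyond the wild-type maximum. The log2 fold change of Lars was 0.81 (SE 0.13, adjusted p = 3.00e-05 from edgeR). Iars was at 24.5 to 46.9 CPM (median 31.9) in eIF2B HOM and 14.0 to 34.7 CPM (median 22.1) in wild-type mice, with 4 eIF2B HOM mice beyond the wild-type maximum. Its log2 fold change was 0.46 (SE 0.14, adjusted p = 0.0433), the call nearest the threshold among the 11. The call of Iars was lost with limma (0.39, adjusted p = 0.0696) and with batch added to sex and age (0.19, adjusted p = 0.587), and it was kept in 9 of the 21 fits that leave out 1 mouse.

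The remaining 5 synthetases of the complex were not called. Mars1, the methionyl enzyme, was at 14.8 to 34.7 CPM (median 20.5) in eIF2B HOM and 11.1 to 22.8 CPM (median 15) in wild-type mice. Its log2 fold change of 0.43 (SE 0.14) missed the threshold at an adjusted p of 0.0689 from edgeR, and it was called with batch added to sex and age (0.57, adjusted p = 0.0322). The 3′ end of Mars1 lies within 1000 bases of that of Ddit3, which encodes the stress factor CHOP, runs on the opposite strand and rose with a log2 fold change of 1.25 (adjusted p = 4.47e-12, SE 0.11). The strand setting of the counting is not given in the sources used here, so the value of Mars1 is uncertain. The same limit holds for Farsb, Fars2, Iars2 and Aimp2, which end within 1000 bases of Sgpp2, Nrn1, Rab3gap2 and Eif2ak1 on the opposite strand. Dars (aspartyl), Rars (arginyl), Qars (glutaminyl) and Kars (lysyl) had log2 fold changes of 0.15, 0.10, 0.10 and -0.02, with 95% intervals of -0.08 to 0.37, -0.11 to 0.32, -0.15 to 0.36 and -0.26 to 0.22. Across the complex 3 of 8 synthetase genes were thus called, with a median log2 fold change of 0.29, and among the free enzymes 8 of 11 tested genes were, with a median of 0.57.

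**Figure D2:**
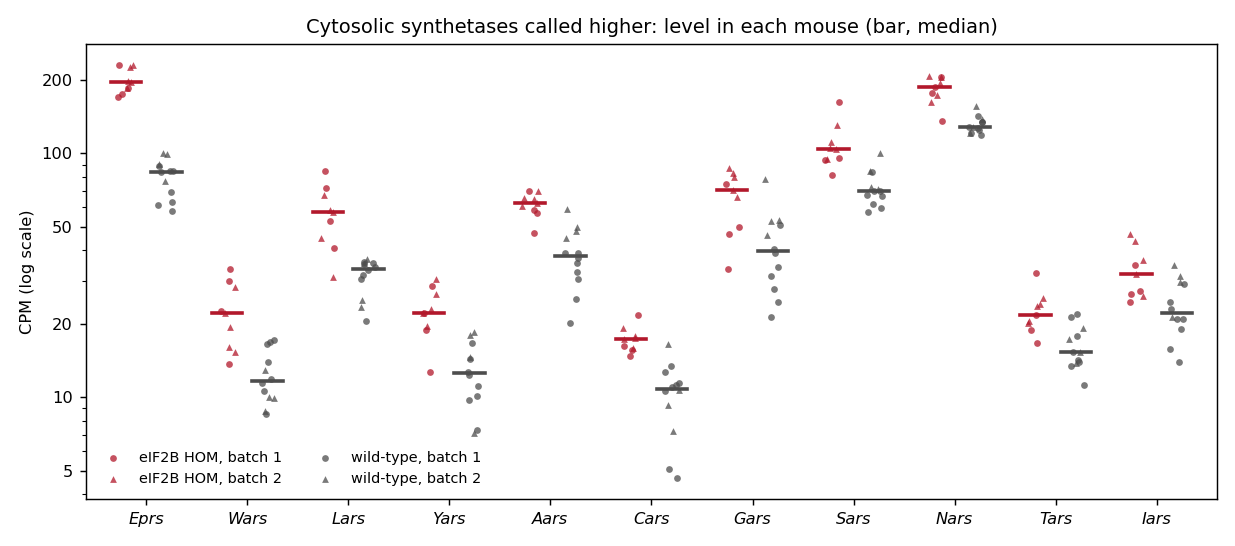
Level in CPM on a log axis of the 11 called genes in each eIF2B HOM mouse (red) and wild-type mouse (grey); circles are batch 1, triangles batch 2, and bars are medians. Only for Eprs is every eIF2B HOM mouse above every wild-type mouse.

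Wars, Yars and Cars, free class I enzymes for tryptophan, tyrosine and cysteine, were each 1.59- to 1.77-fold higher. Wars was at 13.6 to 33.5 CPM (median 22.2) in eIF2B HOM and 8.53 to 17.2 CPM (median 11.7) in wild-type mice, with the log2 fold change at 0.82 (adjusted p = 0.000251 from edgeR, SE 0.15) and 6 of 9 eIF2B HOM mice beyond the wild-type maximum. Yars was at 12.7 to 30.4 CPM (median 22.2) in eIF2B HOM and 7.12 to 18.5 CPM (median 12.5) in wild-type mice, with the log2 fold change at 0.78 (adjusted p = 0.000564, SE 0.15) and 8 of 9 beyond the maximum. Cars was at 14.8 to 21.7 CPM (median 17.4) in eIF2B HOM and 4.65 to 16.6 CPM (median 10.8) in wild-type mice, with the log2 fold change at 0.67 (adjusted p = 0.00807, SE 0.16) and 5 of 9 beyond the maximum. Most eIF2B HOM mice were thus beyond the wild-type range for these 3 genes, and the lowest few lay within it. The call of Cars was lost in edgeR without the libraries under 1000000 counts (0.61, adjusted p = 0.0513) and kept in limma without them (0.67, adjusted p = 0.0124). The 3′ end of Yars lies within 1000 bases of that of C77080 on the opposite strand, with the same limit as for Mars1, and C77080 did not pass the filter.

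The free class II enzymes Aars (alanyl), Gars (glycyl), Sars (seryl), Nars (asparaginyl) and Tars (threonyl) were also higher. Aars was at 47.0 to 70.4 CPM (median 62.5) in eIF2B HOM and 20.1 to 59.4 CPM (median 38.0) in wild-type mice, with the log2 fold change at 0.68 (adjusted p = 1.75e-05 from edgeR, SE 0.11). Gars was at 33.5 to 86.8 CPM (median 71.0) in eIF2B HOM and 21.4 to 78.2 CPM (median 39.8) in wild-type mice, with the log2 fold change at 0.65 (adjusted p = 0.00132, SE 0.13). These overlapped in part: 6 of 9 eIF2B HOM mice were beyond the wild-type maximum for Aars and 3 of 9 for Gars, whose call was lost with genotype alone in the model (0.63, adjusted p = 0.0935). Aars ends within 1000 bases of Exosc6 on the same strand, so that part of its 3′ counts may be shared with a gene that did not pass the filter.

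Sars was at 81.8 to 163 CPM (median 104) in eIF2B HOM and 57.3 to 100.1 CPM (median 69.8) in wild-type mice, with the log2 fold change at 0.57 (adjusted p = 5.75e-05 from edgeR, SE 0.10) and 5 of 9 eIF2B HOM mice beyond the wild-type maximum. Nars was at 136 to 207 CPM (median 188) in eIF2B HOM and 119 to 156 CPM (median 129) in wild-type mice, with the log2 fold change at 0.48 (adjusted p = 2.31e-05, SE 0.08) and 8 of 9 beyond the maximum. Tars was at 16.6 to 32.4 CPM (median 21.7) in eIF2B HOM and 11.2 to 21.9 CPM (median 15.3) in wild-type mice, with the log2 fold change at 0.48 (adjusted p = 0.0228, SE 0.13) and 4 of 9 beyond the maximum. Nars and Tars had the same log2 fold change but differed in how far the genotypes overlapped. The call of Tars was lost without eIF2B HOM replicate 4 (0.42, adjusted p = 0.0718) or eIF2B HOM replicate 7 (0.46, adjusted p = 0.0584). By class, 5 of 8 tested class I and 5 of 10 class II cytosolic genes were called, and Eprs, which has a domain of each class, is counted in neither.

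The free enzymes that were not called were the histidyl enzyme Hars and both subunits of the phenylalanyl enzyme, Farsa and Farsb. Their log2 fold changes were 0.07 (95% interval -0.16 to 0.30) for Hars, 0.21 (-0.03 to 0.46) for Farsa and 0.30 (0.05 to 0.54, adjusted p = 0.177 from edgeR) for Farsb. Vars, the valyl enzyme and the cytosolic gene with the fewest counts (163 over all mice), did not pass the filter. Its level was 1.70 to 7.68 CPM (median 5.43) in eIF2B HOM and 2.25 to 7.84 CPM (median 5.03) in wild-type mice, which overlap almost wholly (2-sided exact permutation test over mice, p = 0.641).

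For 7 of the 11 called genes a promoter window was found in RefSeq (GRCm38.p6, 250 bases before to 50 after the start site), and 30 of the 39 genes had one in all. The called genes Cars, Lars, Nars and Wars had no window and are left out of what follows. Each window was searched on both strands for TGATGNAA, the composite element bound by C/EBP and ATF factors. The word was in 5 of these 7 called genes (Aars, Gars, Iars, Tars and Yars), in 0 of 6 cytosolic genes that were not called, 0 of 14 mitochondrial genes and 0 of 3 scaffold genes. Of all 27025 RefSeq genes, 4.51% hold it in a window, and 3.97% of the 32851 windows do. The windows of Eprs and Sars do not have it. The cyclic AMP response element TGACGTCA was in 0 of the 30 genes, so no window held both words, and in 2.03% of all genes. The 5 windows with the word are shown because they belong to called genes, with the match in capitals, 5′ to 3′ on the strand of the gene, and a match marks these letters and not a measured binding site.
Aars (chr8:111033592-111033891, plus strand): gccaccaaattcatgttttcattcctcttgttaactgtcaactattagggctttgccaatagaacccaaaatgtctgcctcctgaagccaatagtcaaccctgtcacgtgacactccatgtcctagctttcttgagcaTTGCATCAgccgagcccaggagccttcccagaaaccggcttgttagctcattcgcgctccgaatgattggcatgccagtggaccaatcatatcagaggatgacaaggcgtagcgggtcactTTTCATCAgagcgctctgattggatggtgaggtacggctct
Gars (chr6:55037751-55038050, plus strand): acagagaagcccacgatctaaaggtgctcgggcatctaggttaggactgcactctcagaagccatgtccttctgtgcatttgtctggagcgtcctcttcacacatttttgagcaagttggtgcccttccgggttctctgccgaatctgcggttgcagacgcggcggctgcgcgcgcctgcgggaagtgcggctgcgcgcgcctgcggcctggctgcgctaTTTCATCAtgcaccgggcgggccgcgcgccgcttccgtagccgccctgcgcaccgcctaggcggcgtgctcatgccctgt
Iars (chr13:49681880-49682179, plus strand): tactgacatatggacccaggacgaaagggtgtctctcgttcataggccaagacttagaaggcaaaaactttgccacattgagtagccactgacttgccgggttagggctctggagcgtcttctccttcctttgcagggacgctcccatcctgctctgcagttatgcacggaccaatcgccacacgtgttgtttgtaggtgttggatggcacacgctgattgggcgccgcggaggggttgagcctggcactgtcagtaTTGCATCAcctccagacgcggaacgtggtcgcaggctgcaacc
Tars (chr15:11399609-11399908, minus strand): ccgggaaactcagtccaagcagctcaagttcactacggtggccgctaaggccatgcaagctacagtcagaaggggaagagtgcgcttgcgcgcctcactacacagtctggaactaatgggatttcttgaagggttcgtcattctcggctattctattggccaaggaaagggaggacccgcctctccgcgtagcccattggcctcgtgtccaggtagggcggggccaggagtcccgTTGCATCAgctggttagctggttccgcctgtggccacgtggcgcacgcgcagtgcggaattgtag
Yars (chr4:129189653-129189952, plus strand): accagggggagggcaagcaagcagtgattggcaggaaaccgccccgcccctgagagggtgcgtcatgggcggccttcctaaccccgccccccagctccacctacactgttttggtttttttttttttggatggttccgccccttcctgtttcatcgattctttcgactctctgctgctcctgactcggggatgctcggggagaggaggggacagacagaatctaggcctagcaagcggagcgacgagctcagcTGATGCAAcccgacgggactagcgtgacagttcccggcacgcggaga
Aars has 2 matches, whose first bases lie at -112 and 9 from the start site, and the matches of the other windows lie at -30 in Gars, 7 in Iars, -15 in Tars and 3 in Yars. In Yars the word reads TGATGCAA on the strand of the gene, and in the other windows it is on the opposite strand, so that the capitals show its reverse complement. The genes with the word had log2 fold changes of 0.46 (Iars) to 0.78 (Yars), and the called genes whose window was without it had 1.33 (Eprs) and 0.57 (Sars).

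Mitochondrial synthetases that share an amino acid with a called cytosolic gene passed the filter for leucine, tyrosine, isoleucine and cysteine, and none of these 4 was called. Lars2, the mitochondrial leucyl enzyme, was at 8.29 to 14.8 CPM (median 11.9) in eIF2B HOM and 8.54 to 19.5 CPM (median 13.4) in wild-type mice, with the log2 fold change at -0.24 (95% interval -0.55 to 0.06, adjusted p = 0.457 from edgeR). Yars2 was at 5.44 to 14.9 CPM (median 10.8) in eIF2B HOM and 8.38 to 23.0 CPM (median 13.3) in wild-type mice, with the log2 fold change at -0.34 (-0.69 to 0.01, adjusted p = 0.318). Both leaned to the lower side without a call, and Yars2 was called lower with batch added to sex and age (-0.67, adjusted p = 0.0287).

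Iars2 was at 24.2 to 42.1 CPM (median 33.2) in eIF2B HOM and 21.9 to 39.3 CPM (median 33.8) in wild-type mice, with the log2 fold change at 0.05 (95% interval -0.18 to 0.28, adjusted p = 0.896 from edgeR). Cars2 was at 1.34 to 11.2 CPM (median 8.15) in eIF2B HOM and 2.24 to 13.9 CPM (median 7.01) in wild-type mice, with the log2 fold change at 0.08 (-0.35 to 0.51, adjusted p = 0.905). The genotypes overlapped almost wholly for both. The other 4 tested mitochondrial genes, Fars2, Hars2, Mars2 and Rars2, had log2 fold changes of 0.13, 0.03, -0.06 and -0.24, and their intervals all include 0.

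**Figure D3:**
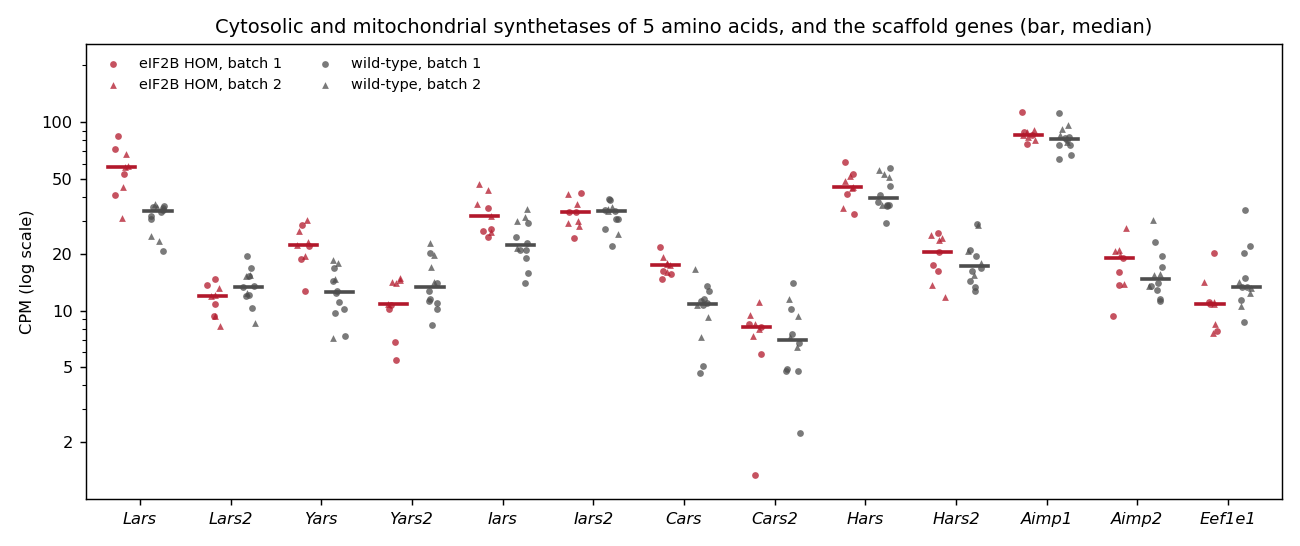
Level in CPM on a log axis of 5 cytosolic and mitochondrial pairs and the 3 scaffold genes in each eIF2B HOM mouse (red) and wild-type mouse (grey); circles are batch 1, triangles batch 2, and bars are medians. Beyond the highest wild-type mouse lie 8 of 9 eIF2B HOM mice for Lars, 8 for Yars, 5 for Cars and 4 for Iars. The medians are 8.15 and 7.01 CPM for Cars2, 85.3 and 81.0 CPM for Aimp1 and 19.0 and 14.7 CPM for Aimp2 in eIF2B HOM and wild-type mice, with the colours overlapping over most of the range.

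A ratio within each mouse sets the pair apart from library scaling. Over 17 such ratios, 9 of a cytosolic over a mitochondrial gene and 8 of a complex synthetase over Aimp1, 4 differed by genotype at a Benjamini-Hochberg p under 0.05 over the 17 (2-sided exact permutation tests over all 293930 splits of 9 and 12 mice). The set was drawn up with the levels known, and the values of Eprs, Lars and Yars enter the tests above too. Unlike the main test, these permutation tests and those of the genes outside the filter take no account of sex, age or batch. The log2 ratio of Lars to Lars2 was 1.604 to 2.64 (median 2.13) in eIF2B HOM and 0.66 to 1.49 (median 1.14) in wild-type mice, with no overlap (difference 1.01, exact p = 3.4e-06, the smallest these groups allow, adjusted p = 2.89e-05). The log2 ratio of Yars to Yars2 was 0.43 to 2.14 (median 0.81) in eIF2B HOM and -0.96 to 0.90 (median -0.14) in wild-type mice, with 4 of 9 above every wild-type mouse (difference 1.11, exact permutation p = 5.78e-05, adjusted p = 0.000328). Within batch 1 and batch 2 the difference was 1.09 and 0.93 for Lars over Lars2 and 1.23 and 1.14 for Yars over Yars2. For isoleucine and cysteine, whose cytosolic genes were called too, the differences were 0.43 (exact permutation p = 0.0672, adjusted p = 0.141) and 0.72 (exact permutation p = 0.0554, adjusted p = 0.135), and neither passed. So 2 of the 9 ratios of a cytosolic over a mitochondrial gene passed, and none was computed for the other called genes, whose mitochondrial partners did not pass the filter or, for Gars, do not exist as a separate gene.

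None of the 3 scaffold genes was called. Aimp1 was at 76.5 to 113 CPM (median 85.3) in eIF2B HOM and 63.5 to 112 CPM (median 81.0) in wild-type mice, with the log2 fold change at 0.08 (95% interval -0.09 to 0.25, adjusted p = 0.718 from edgeR). Aimp2 was at 9.37 to 27.3 CPM (median 19.0) in eIF2B HOM and 11.2 to 30.3 CPM (median 14.7) in wild-type mice, with the log2 fold change at 0.07 (-0.28 to 0.41, adjusted p = 0.905). The genotypes overlapped over nearly the whole range for both.

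Eef1e1, which encodes the smallest scaffold protein, was at 7.64 to 20.1 CPM (median 10.9) in eIF2B HOM and 8.73 to 34.3 CPM (median 13.4) in wild-type mice. Its log2 fold change was -0.45 (SE 0.19, unadjusted p = 0.0239, adjusted p = 0.206 from edgeR), and 3 eIF2B HOM mice lay below every wild-type mouse. Against Aimp1 in the same mouse, the log2 ratio of Eprs was 0.99 to 1.44 (median 1.18) in eIF2B HOM and -0.37 to 0.36 (median -0.04) in wild-type mice, with no overlap (difference 1.22, exact permutation p = 3.4e-06, adjusted p = 2.89e-05). That of Lars differed by 0.69 (exact permutation p = 0.000293, adjusted p = 0.00124), with 6 of 9 eIF2B HOM mice beyond the wild-type maximum. That of Iars differed by 0.38 (exact permutation p = 0.0747, adjusted p = 0.141) and that of Mars1 by 0.32 (exact permutation p = 0.0316, adjusted p = 0.107), without passing. For Dars, Kars, Qars and Rars the difference was between -0.14 and 0.07. No synthetase was set against Aimp2 or Eef1e1 in this way. Relative to Aimp1 in the same mouse, Eprs and Lars thus passed this test, Eprs with no overlap and Lars with 3 of 9 eIF2B HOM mice inside the wild-type range, and the other 6 complex synthetases did not pass it.

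Summed over the 20 cytosolic genes, the level was 911 to 1231 CPM (median 1116) in eIF2B HOM and 651 to 958 CPM (median 705) in wild-type mice, a ratio of means of 1.48, and 8 of 9 eIF2B HOM mice were beyond the wild-type maximum. Without Eprs the ratio was 1.36. The 16 mitochondrial genes summed to 137 to 174 CPM (median 156) in eIF2B HOM and 131 to 186 CPM (median 156) in wild-type mice, a ratio of 0.987, and the 3 scaffold genes to 106 to 143 CPM (median 113) in eIF2B HOM and 95.2 to 138 CPM (median 110) in wild-type mice, a ratio of 1.02. Of the 11 called genes, each eIF2B HOM mouse had 10 or 11 above the wild-type median and 4 to 10 above every wild-type mouse, while each wild-type mouse had 3 to 10 above the wild-type median. No test is given for these counts, since the same contrast chose the called genes, or for the sums, since the gene list was drawn up with earlier results known.

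**Figure D4:**
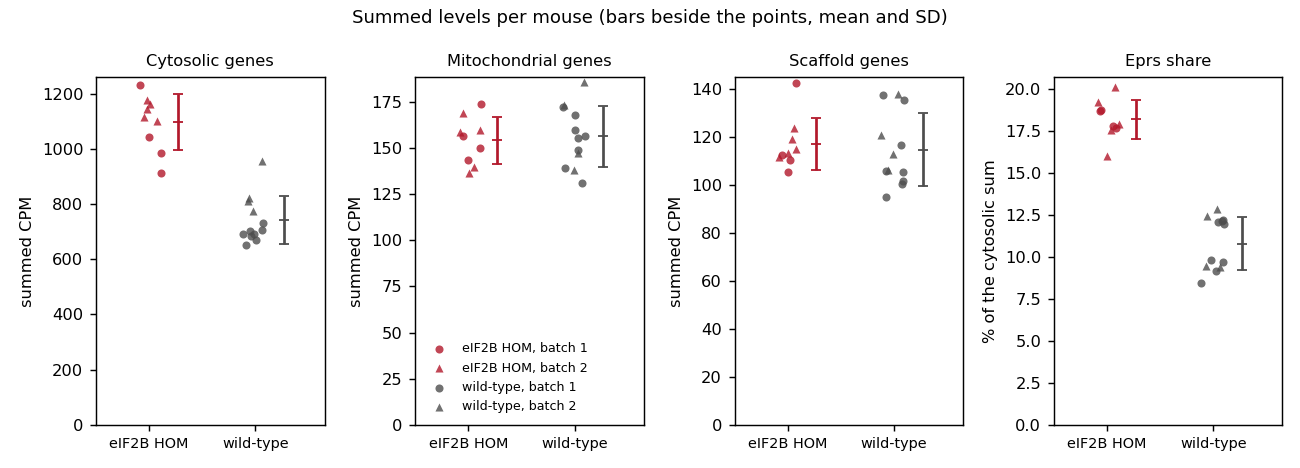
Summed CPM of the cytosolic, mitochondrial and scaffold genes and the share of Eprs in the cytosolic sum, per mouse, for eIF2B HOM (red) and wild-type (grey); circles are batch 1, triangles batch 2, and bars are mean and SD (n = 9 and 12). The cytosolic sums are 911 to 1231 CPM in eIF2B HOM and 651 to 958 CPM in wild-type mice, and the Eprs shares do not overlap.

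The 9 genes that did not pass the filter were Vars and the mitochondrial Aars2, Ears2, Nars2, Pars2, Sars2, Tars2, Vars2 and Wars2, with 95 to 230 counts each over all 21 mice. With no filter edgeR called the same number of cytosolic genes, 11, and none of these 9, where 2.43% of 16644 genes were called in either direction. All 9 had overlapping genotypes. Pars2, the mitochondrial prolyl enzyme, was at 1.70 to 5.11 CPM (median 3.55) in eIF2B HOM and 0.96 to 5.55 CPM (median 2.28) in wild-type mice, with an exact permutation p of 0.0391 not adjusted for the 9 genes. The other 8 had an exact permutation p of 0.279 or more.

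Besides Pars2, which shares proline with Eprs, another 6 of these genes share an amino acid with a called cytosolic gene. Aars2 was at 2.43 to 10.9 CPM (median 4.89) in eIF2B HOM and 2.98 to 9.38 CPM (median 6.0) in wild-type mice, with an exact permutation p of 0.279. Ears2 was at 0 to 7.82 CPM (median 2.78) in eIF2B HOM and 0.75 to 7.55 CPM (median 2.60) in wild-type mice, with an exact permutation p of 0.726. For both the eIF2B HOM range took in the whole wild-type range. Nars2 was at 1.18 to 5.21 CPM (median 4.26) in eIF2B HOM and 0.93 to 7.31 CPM (median 3.59) in wild-type mice, with an exact permutation p of 0.896. Sars2 was at 1.04 to 6.80 CPM (median 2.68) in eIF2B HOM and 0.93 to 6.57 CPM (median 2.59) in wild-type mice, with an exact permutation p of 0.719. In these 2 genes the medians lay close to each other beside the spread between mice. Tars2 was at 2.23 to 16.3 CPM (median 5.56) in eIF2B HOM and 1.59 to 7.61 CPM (median 5.25) in wild-type mice, with an exact permutation p of 0.311 and 2 eIF2B HOM mice beyond the wild-type maximum. Wars2 was at 3.72 to 9.38 CPM (median 5.86) in eIF2B HOM and 3.44 to 7.99 CPM (median 6.26) in wild-type mice, with an exact permutation p of 0.765 and 3 eIF2B HOM mice beyond the maximum. For the 9 genes outside the filter no difference between genotypes was detectable at this depth after adjustment.

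The called genes were also compared within each batch, with sex but not age in the model. In batch 1 edgeR called 4 cytosolic genes higher (Eprs, Lars, Aars and Sars), where 0.832% of all genes tested were called higher. In batch 2 it also called 4 (Eprs, Lars, Wars and Nars), where 0.961% were. The fold changes of all 11 were positive in both batches, from 0.41 (Iars) to 1.36 (Eprs) in batch 1 and from 0.25 (Iars) to 1.16 (Eprs) in batch 2. The median over the tested cytosolic genes was 0.48 in batch 1 (19 genes) and 0.31 in batch 2 (20 genes). These medians do not cover the same genes, since Vars (-0.09) passed the filter in batch 2 only. The genotype by batch term was called for none of the 30 genes, nor for any gene (0%). Only Aars of the 30 had an unadjusted p under 0.05 for it in edgeR (0.0295), beside 3.55% of all genes tested. The log2 fold changes of Aars were 0.84 in batch 1 and 0.35 in batch 2. DESeq2 called none of the 30 for the genotype by batch term either.

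**Figure D5:**
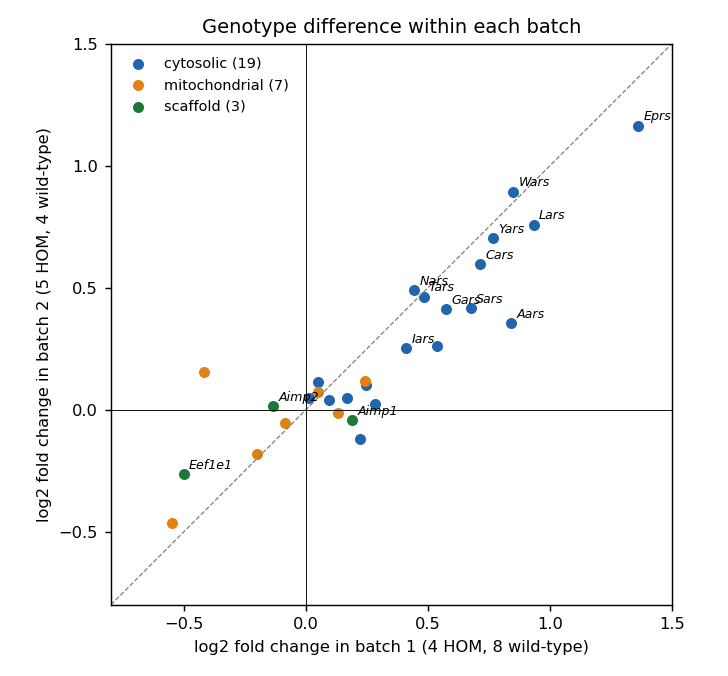
Log2 fold change of eIF2B HOM over wild-type mice in batch 2 (y axis) against batch 1 (x axis) for the 29 genes tested in both, with the called and scaffold genes named and the line of equality dashed. All 11 called genes are above 0 in both batches, from Iars at 0.41 and 0.25 to Eprs at 1.36 and 1.16, and the mitochondrial and scaffold genes lie between -0.55 and 0.24 in batch 1.

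The batches themselves differed in the level of some of these genes. In batch 2 against batch 1, with genotype and sex in the model, 10.2% of all genes were called higher and 11.4% lower, and 7 of the 30 were higher: Aars, Eprs, Farsa, Farsb, Gars, Iars and Yars2. The largest such differences were 0.67 for Farsb and 0.66 for Gars, as large as the genotype difference of Gars. None of the 30 was lower. In batch 2 the eIF2B HOM mice were 93 to 104 days old and the wild-type mice 90 to 92 days old, so genotype and age cannot be told apart within it.

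In females edgeR called 6 cytosolic genes higher, where 1.32% of all genes were called higher, and in males 7, where 0.811% were. The genotype by sex term was called for none of the 30 genes nor for any gene (0%). Its unadjusted p in edgeR was under 0.05 for 2 of the 30, Iars (0.00297) and Gars (0.00815), beside 2.74% of all genes tested. The log2 fold changes in males and females were 0.94 and 0.14 for Iars and 1.07 and 0.38 for Gars. DESeq2 called none of the 30 for the genotype by sex term. Between males and females, with genotype and age in the model, 0.0326% of all genes were called in either direction and 0 of the 30 were. Of the 30, 2 had an unadjusted p under 0.05 in edgeR, beside 4.35% of all genes tested.

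Around the synthetases, 47 genes of tRNA supply and elongation in 7 lists were counted, of which 38 passed the filter and 2 were higher, beside the 2.62% of all genes. The median over the 38 was 0.04. Xpot, which exports tRNA from the nucleus, was at 35.3 to 65.7 CPM (median 48.6) in eIF2B HOM and 26.3 to 43.6 CPM (median 36.0) in wild-type mice, with the log2 fold change at 0.51 (adjusted p = 0.00162 from edgeR, SE 0.11) and 6 of 9 eIF2B HOM mice beyond the wild-type maximum. Polr3b, a core subunit of the RNA polymerase that transcribes tRNA genes, was at 6.60 to 15.6 CPM (median 9.51) in eIF2B HOM and 2.87 to 8.88 CPM (median 6.69) in wild-type mice, with the log2 fold change at 0.64 (adjusted p = 0.0452, SE 0.19). The call of Polr3b was lost with no filter (0.64, adjusted p = 0.0726) and with DESeq2 (0.64, adjusted p = 0.0701), and it was kept in 4 of 13 alternatives and in 5 of the 19 fits without 1 mouse that tested it. Xpot was kept in 13 of 14 alternatives, all but sex, age and batch (0.40, adjusted p = 0.0623), and without any 1 mouse. Both belong to the list of tRNA transcription, processing and export, with 2 higher of 17 tested. None of 7 genes of cytosolic elongation, which are elongation factor genes and Eef2k for the kinase of eEF2, was called in edgeR, and none had an unadjusted p under 0.05, at a median of 0.05. Eef1a1 among them has near-identical copies in the genome, so its count is uncertain.

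Cell composition markers differed between genotypes in part, and also between batches. Oligodendrocyte markers summed to 4011 to 6906 CPM (median 4472) in eIF2B HOM and 4488 to 11055 CPM (median 6649) in wild-type mice, with 3 of 7 lower. Within batch 1 the medians were 5998 CPM in eIF2B HOM and 7064 CPM in wild-type mice (ratio 0.849), and within batch 2 they were 4079 CPM in eIF2B HOM and 4942 CPM in wild-type mice (ratio 0.825), against a ratio of 0.673 over all mice, where the genotypes are spread unevenly over the batches. None of the 7 was called within either batch, and 3 were lower with batch added to sex and age. Astrocyte markers summed to 4727 to 8579 CPM (median 6854) in eIF2B HOM and 6778 to 11250 CPM (median 9528) in wild-type mice. The ratio of these medians was 0.770 in batch 1, 0.720 in batch 2 and 0.719 over all mice. Of the 7 markers 1 was higher and 1 lower, and with batch added to sex and age 0 were higher and 1 lower. The median log2 fold change over the 7 was -0.07, a smaller fall than that of the sum. No marker of neurons, microglia, endothelium or striatum that passed the filter was called. Whether these shifts play a part in the synthetase differences was not tested. Olfactory bulb markers were above 60 CPM in 1 eIF2B HOM and 4 wild-type libraries, and without these 5 libraries 9 of the 11 genes were called, all but Cars (0.54, adjusted p = 0.11) and Iars (0.44, adjusted p = 0.164).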

How the data were processed

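The submitters' processing notes name STAR, featureCounts of Subread 1.6.2 and build GRCm38.p6, and the methods add trimming with skewer, Gencode gene models and removal of PCR copies by unique molecular identifiers. The authors deposited raw counts per protein-coding gene for each of the 21 mice. In the form used here all counts of 100 or more are rounded to 2 significant digits, and where this rounding arose is not known. The strand setting is not given in the sources used here, and a deposited sheet of scaled values was not used. From the counts, edgeR 4.0.16 in R 4.3.3 gave TMM factors, the filter by genotype (filterByExpr), robust quasi-likelihood tests with sex and age, and Benjamini-Hochberg adjustment over 9192 genes. The SE is the log2 fold change over the square root of F, 95% intervals use the t quantile at the residual and prior degrees of freedom of each gene's test, and ratios within a mouse used log2 CPM with a prior count of 2. Interaction terms had separate models, that with batch without age, and the fits of each batch alone left out age too. Each library is 1 mouse. Totals of 727018 to 3100141 counts limit precision. The genotype test was tried on simulated counts of 9087 genes: it found 98 of 98 genes given a log2 change of 1 and 72 of 98 given 0.5, with 10 calls among unchanged genes. The simulated means held no effect of batch, age or sex, so these rates need not hold for the measured counts. The members, lists and promoter words were chosen with earlier results of these data known. Genes were given in full where called, where they are scaffold genes or where they share an amino acid with a called gene of the other compartment, and the others by range and count. Alternatives were limma 3.58.1 (voomWithQualityWeights, the study's test), DESeq2 1.42.0, other scaling factors, filters and covariates, each batch or sex alone, and leaving out each mouse. Leaving out 5 libraries high in olfactory bulb markers, or the 5 under 1000000 deposited counts (in edgeR and in limma), was added after seeing the data. The methods state a minimum of 1000000 total counts for a sample to be analysed. Whether that total equals the deposited count of protein-coding genes is not stated. The study gives 9 eIF2B HOM and 12 wild-type mice for this contrast, as many as the 21 libraries that entered the main test here.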

Additional observations from a re-analysis of the deposited data

Results flagged for a closer look

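In 2 of the 39 genes looked at, 1 eIF2B HOM mouse stood apart from the other 8 by Dixon's criterion, which chance alone meets in about 1 of 20 groups. Both times it was the same male of batch 1, eIF2B HOM replicate 3. Aimp1 was at 113 CPM in this mouse and at 90.3 CPM in the next, 0.620 of the whole range of eIF2B HOM mice apart, and a wild-type mouse reached 112 CPM. Aars2, which did not pass the filter on low counts, was at 10.9 CPM in this mouse and at 6.20 CPM in the next, 0.553 of that range apart. This mouse had the smallest library (727018 counts) and, among the eIF2B HOM mice, the highest sum of all 3 sets: 1231 CPM for cytosolic, 174 CPM for mitochondrial and 143 CPM for scaffold genes. Wild-type mice, 12 in number, were not examined in this way.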

How the results depend on the processing

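None of 1396 values recomputed under the alternatives changed sign with a call, and 1337 were counted as the same. For a fold change this means the same side of the threshold, with the same sign unless neither fit called the gene. Uncalled genes could thus change sign, as did Hars (-0.12 to 0.22 over the alternatives) and Hars2 (-0.34 to 0.25). For counts and medians, the same means within a set margin of the main value. The number of cytosolic genes called higher was 11 in edgeR and 10 with limma. It was 11 too with DESeq2, with RLE or upper-quartile factors and with no filter. With 10 counts in every sample it was 8, where Cars, Wars and Yars were not tested and no other call was lost. With genotype alone it was also 8, with Gars, Iars and Tars tested and not called. Without the libraries under 1000000 deposited counts it was 9 with edgeR and 10 with limma (all but Iars, 0.39, adjusted p = 0.134). It was 4 in batch 1 alone, 4 in batch 2 alone, 6 in females alone and 7 in males alone, fits with fewer mice. Leaving out 1 mouse gave 9 to 11 calls, a median cytosolic log2 fold change of 0.45 to 0.50 and a mitochondrial median of -0.07 to 0.02. The cytosolic median was 0.48, and 0.31 in batch 2 alone, where Vars was tested too. The mitochondrial median was -0.01, and -0.17 in males alone. With sex, age and batch 1 gene was called lower (Yars2, against 0 with sex and age). Mars1 was then called higher, and the cause was not tested. Over all genes 397 were called, and 194 to 548 in the 14 alternatives that use both batches and sexes, among them 197 with genotype alone, 238 with sex and batch, and 246 with sex, age and batch.

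Aars, Eprs, Lars, Nars, Sars, Wars and Yars were called in every one of these alternatives that tested them and without any 1 mouse. Cars lost its call without the olfactory bulb libraries and, in edgeR, without those under 1000000 counts, Gars with genotype alone (0.63), and Tars with genotype alone (0.48) or sex and batch (0.46). Iars was kept in 6 of 14 alternatives, and lost without wild-type replicate 1, 3, 5, 6, 7, 8 or 9 or eIF2B HOM replicate 2, 4, 5, 6 or 9 (log2 fold change 0.37 to 0.47). The causes of these losses were not tested. No paired analysis was possible because the labels name no litter and give no replicate numbers.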
